A study of Homo sapiens with 24 samples.

Results

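CAV2 was knocked down with an siRNA in A498 and 786-O cells, and RNA of the transfected cells was compared with RNA of cells given a control siRNA on 2 two-colour arrays of 24 in the series. Both A498 and 786-O are established lines of human renal cell carcinoma. The arrays were chosen by their labels alone, 1 for each line, with si-CAV2 RNA in Cy5 and control siRNA RNA of the same line in Cy3. Both siRNAs were delivered with Lipofectamine RNAiMAX. The siRNA sequence and the time between transfection and RNA extraction are not given in the sources used here. The other arrays hold transfected miRNAs, other siRNAs and compounds in renal, prostate and head and neck cancer lines. Of these, 14 share the design of the si-CAV2 arrays, with the control always in Cy3. Of the 14, 6 lie on the same slide as both si-CAV2 arrays. All 14 are in prostate or head and neck lines, and none is in A498 or 786-O. Their treatments are several miRNAs, an siRNA against LAMB3, and the compounds wogonin and genistein. Cell line and treatment therefore cannot be told apart where si-CAV2 is set against the 14. Dyes were not swapped on any array, so that a probe which labels better with one dye would shift the same way on all of them. The 14 arrays were used to see such shifts, and 4 arrays of another design in A498 and 786-O cells (miR-27b in both lines, and CXCL10 at 12 h and at 24 h in 786-O) gave further values.

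Caveolin-2 is a small membrane protein of caveolae, the flask-shaped pits of the plasma membrane. It builds their coat together with caveolin-1, on which it depends to reach the cell surface, and cavins and EHD2 shape and stabilise the coat from the inside of the cell. Caveolae take part in lipid handling, mechanical buffering and signalling, and renal carcinoma lines commonly carry abundant caveolin-1. A498 and 786-O cells have both lost the VHL protein, so that genes driven by hypoxia-inducible factors are active in normal oxygen.

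The knock-down was read by 60-base probes. The CAV2, CAV1 and CAV3 probes that carried the brightest signal are shown because the 3 genes are paralogs and the finding rests on telling them apart. The sequences are those of the array design, written in the sense of the transcript, and all lie in coding sequence. Capitals mark the longest run of bases that the CAV2 probe shares with the CAV1 probe and, in the CAV3 probe, the longest run it shares with the CAV2 probe.
CAV2: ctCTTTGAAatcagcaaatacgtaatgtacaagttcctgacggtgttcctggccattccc
CAV1: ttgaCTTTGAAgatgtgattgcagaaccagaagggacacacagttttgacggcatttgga
CAV3: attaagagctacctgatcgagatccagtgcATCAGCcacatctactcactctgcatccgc
On hg19 (GRCh37), the CAV2 probe lies on the forward strand at chr7:116140389-116140448 and the CAV1 probe at chr7:116199001-116199060, and the CAV3 probe lies at chr3:8787416-8787475. The longest run shared with the CAV2 probe was 7 bases in the CAV1 probe and 6 bases in the CAV3 probe.

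CAV2 RNA fell in both lines. In A498 the processed signal was 3597 with control siRNA and 258 with si-CAV2, and in 786-O it was 2891 and 314. The log2 ratio was -3.80 ± 0.41 in A498 and -3.20 ± 0.36 in 786-O, where the error is that of the scanner software for 1 array. This left 7.16% of the control signal in A498 and 10.9% in 786-O. A second CAV2 probe gave -4.05 and -4.19. Its signals went from 293 to 17.7 in A498 and from 541 to 29.6 in 786-O, and on the 14 arrays of other treatments it lay between -2.15 and 0.59. On the same 14 arrays the brighter probe ran from -0.81 to 1.24, with a mean of -0.07 ± 0.48 (SD, n = 14). Both si-CAV2 arrays thus lay below all 14, and the difference of means was -3.44 (exact permutation test, two-sided, p = 0.00833, which is the smallest value that 120 ways of drawing 2 of 16 arrays can give). As none of the 14 arrays is in A498 or 786-O, this test cannot separate cell line from treatment. On the 4 arrays of the other design in the same lines, CAV2 lay between -0.32 and -0.06. The lowest signals of the brighter CAV2 probe on the 16 arrays, 8.27 and 7.13, were those of the prostate line LNCap with control and miR-145.

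**Figure D1:**
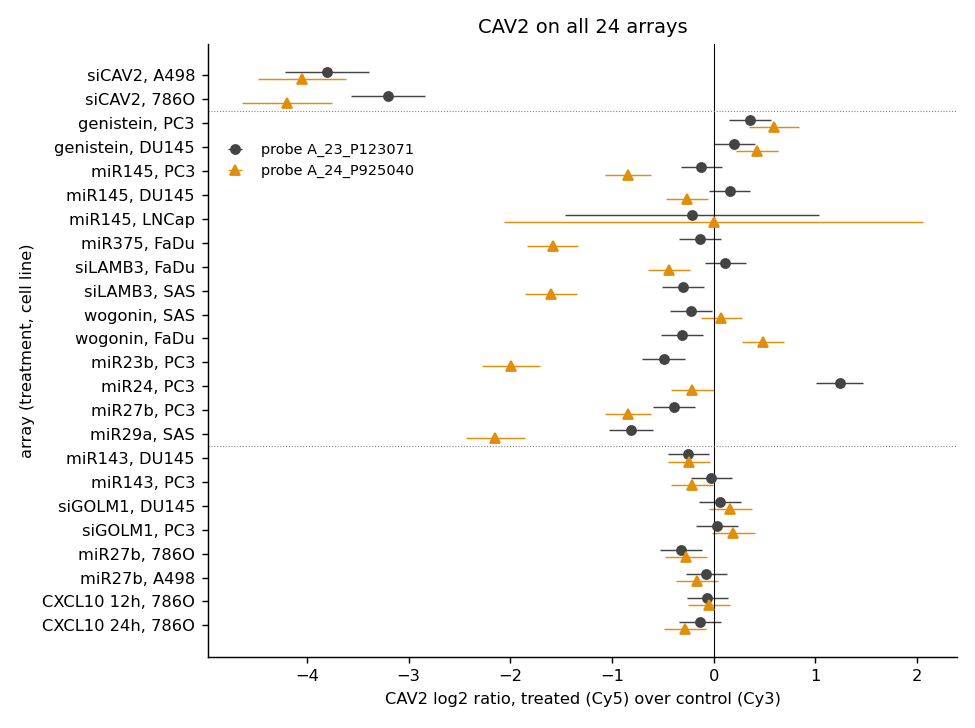
Log2 ratio of CAV2, treated over control, on each of the 24 arrays for 2 probes, with bars for the scanner software's error. Dotted lines separate the 2 si-CAV2 arrays, the 14 other arrays of the design and the 8 arrays of the other design; the si-CAV2 arrays sit at -3.20 or lower, and no other value of the brighter probe is below -0.81.

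None of the other members of the caveola coat that were measured moved past 1 on the log2 scale. CAV1, the main coat protein, had signals of 11300 and 8576 in A498 and of 8106 and 7365 in 786-O, for control siRNA and si-CAV2 in this order. Its log2 ratio was -0.40 ± 0.21 in A498 and -0.14 ± 0.20 in 786-O, and a second CAV1 probe gave -0.43 and -0.17. Both values of CAV1 were within the range of the 14 other arrays, from -1.34 to 1.05. CAV3, the muscle caveolin, gave -0.31 and 0.02, at control signals of 355 in A498 and 251 in 786-O. Whether the CAV3 probe also takes up CAV1 RNA was not tested. CAVIN1, the cavin that all caveolae need, had the highest signal of the list, between 55379 and 71405 in the 4 channels, and log2 ratios of 0.19 and 0.18. CAVIN3 gave 0.09 and 0.11, and the muscle cavin CAVIN4 gave -0.51 and -0.06. EHD2, an ATPase at the neck of caveolae, gave -0.29 and -0.12. The membrane-bending proteins PACSIN2 and PACSIN3 gave -0.38 and -0.32, and 0.15 and 0.19, in this order. For the whole list, 1 of 9 tested members (CAV2) was past 1 and 0 further members were past 0.5 in both lines. The list medians, CAV2 included, were -0.31 in A498 and -0.06 in 786-O, beside 0.02 in both lines over all tested genes.

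**Figure D2:**
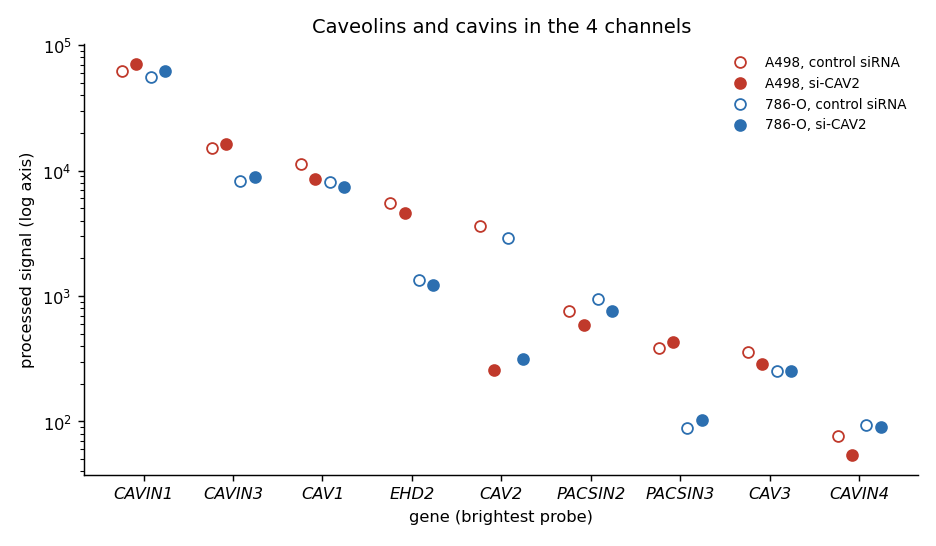
Processed signal (log axis) of the brightest probe of each caveolin and cavin in the 4 channels, open circles for control siRNA and filled circles for si-CAV2, red for A498 and blue for 786-O. CAV2 drops from 3597 to 258 and from 2891 to 314, and no log2 ratio of the other 8 genes lies below -0.51.

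Over all genes, the lines shared more lower than higher genes at limits of 1 and 0.5, but not at 0. Of 13930 tested genes, 55 were lower past 1 in both lines (0.395%) and 10 were higher (0.0718%), a count by size with 1 array a line and no test. In each line alone, 117 genes were below -1 and 72 above 1 in A498, and 105 and 88 in 786-O. At a limit of 0.5, 276 genes (1.98%) were lower and 148 (1.06%) higher in both. At a limit of 0, 4573 genes (32.8%) were lower and 5530 (39.7%) higher in both. All 4 channels were well above background for 35 of the 55 lower genes and for 3 of the 10 higher genes. Across the 13930 genes the log2 ratios of the lines had Pearson's r of 0.535, a description in which all points share the 2 arrays and their dyes. Each si-CAV2 array had an r of at most 0.24 with any of the 14 other arrays, and of at most 0.11 with those on its own slide. With the 4 arrays of the other design in A498 and 786-O, r was between 0.18 and 0.29.

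**Figure D3:**
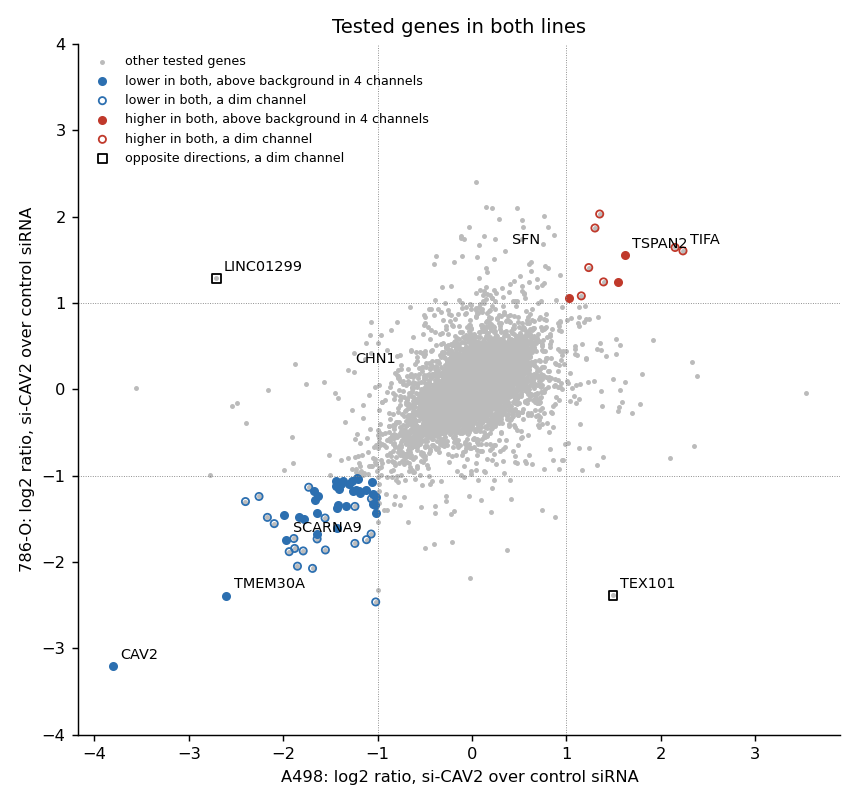
Log2 ratio of each tested gene in A498 (horizontal) and 786-O (vertical), with dotted lines at -1 and 1. Blue and red mark the 55 genes lower and the 10 genes higher in both lines, filled where all 4 channels were well above background, and squares mark the 2 genes past 1 in opposite directions.

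TMEM30A came next to CAV2 among the genes lower in both lines, and it fell in the limma fit. It encodes the subunit that flippases need to move phosphatidylserine to the inner leaflet of membranes. Its signal was 2412 with control siRNA and 398 with si-CAV2 in A498, and 4407 and 841 in 786-O. The log2 ratios were -2.60 ± 0.32 and -2.39 ± 0.30, and a second TMEM30A probe gave -2.19 and -2.24. On the 14 other arrays the first probe lay between -0.93 and 0.71 and the second between -1.60 and 0.52, and on the 4 arrays of the other design in the same lines the gene lay between -0.21 and 0.43. As si-CAV2 was the only agent against CAV2 on these arrays, changes that follow the loss of CAV2 and changes due to the siRNA itself cannot be told apart for TMEM30A or any other gene.

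SCARNA9, a small RNA of Cajal bodies that guides the modification of spliceosomal RNA, went from 460 to 117 in A498 and from 279 to 83.7 in 786-O, log2 ratios of -1.97 and -1.74. DESI1, a peptidase that removes SUMO and that the array names PPPDE2, went from 791 to 254 and from 598 to 187, log2 ratios of -1.64 and -1.68. PUDP, a phosphatase of pseudouridine monophosphate that the array names HDHD1, gave -1.64 and -1.43. CLNS1A, a chaperone of spliceosomal particle assembly and one of the bright genes of the group, went from 3777 to 1503 and from 4203 to 1650, log2 ratios of -1.33 and -1.35. B4GALT1, which adds galactose to glycans, gave -1.42 and -1.34. All 5 of these genes lay below every one of the 14 other arrays in both lines.

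RC3H2 and SLC4A4 were lower by similar amounts but within the range of the other treatments. RC3H2, an RNA-binding ubiquitin ligase also called roquin-2, gave -1.43 and -1.38, with a lowest value of -1.66 on the 14 arrays. The least changed of its 3 probes were at -0.54 and -0.52. SLC4A4, the sodium bicarbonate cotransporter of the proximal tubule, gave -1.99 and -1.46, against a range from -2.37 to 1.42 on the 14 arrays.

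MIP and TAT were lower on all 16 arrays of the design. MIP, the aquaporin of the eye lens, gave -1.84 and -1.48, and TAT, the tyrosine aminotransferase of liver, gave -1.43 and -1.61. Their signals were low, at most 57.7 in any channel. On the 14 other arrays MIP averaged -1.85 and TAT averaged -1.61, and no array had MIP above -1.21 or TAT above -1.04. Subtracting this average turned the mean of both lines to 0.19 for MIP and 0.085 for TAT.

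**Figure D4:**
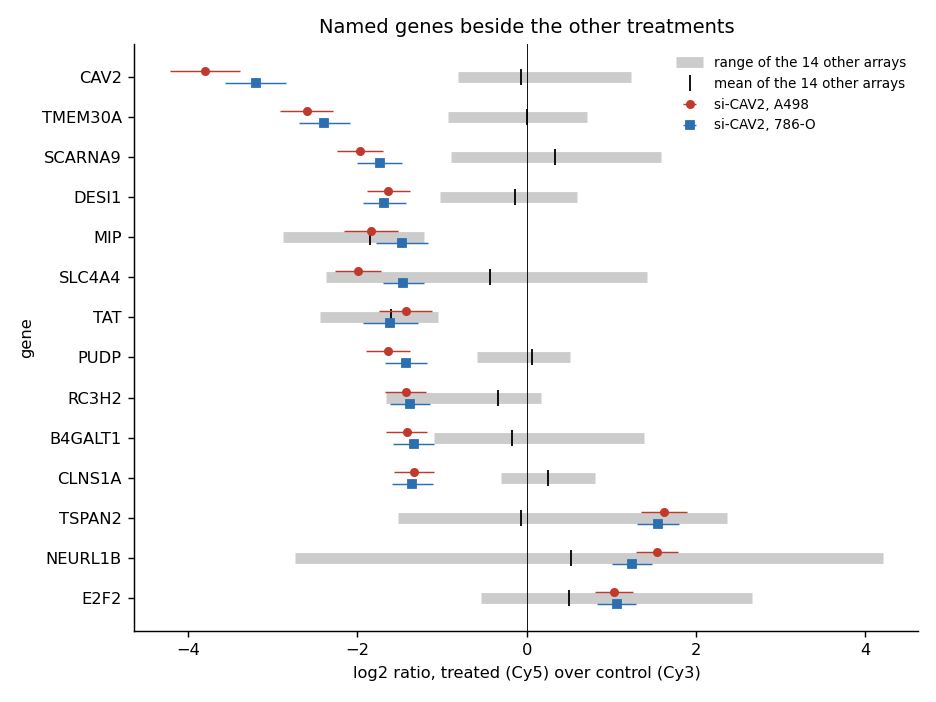
Log2 ratio in A498 (red circles) and 786-O (blue squares) of 11 lower and 3 higher genes with large values in both lines, with the scanner software's error, beside the range (grey bar) and mean (black tick) of the 14 arrays of other treatments. CAV2, TMEM30A, SCARNA9, DESI1, PUDP, B4GALT1 and CLNS1A lie left of their grey bars, and MIP and TAT lie inside theirs.

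The 55 lower genes were split by their place among the 14 other arrays, all of them in prostate or head and neck lines. For 20 of them both lines lay below all 14 arrays, as they did for 131 of all 13930 genes (0.94%). The median control signal of these 20 genes was 639 in A498 and 529 in 786-O, near the 477 and 419 of all tested genes. The other 35 genes had median control signals of 31.1 and 21.5, although 9 of them were above 100 in both lines, such as EML4 at 7609 in A498. The averages on the 14 arrays, which the split largely fixes, were below -0.5 for 22 of the 35 and for 2 of the 20. They were below -0.5 for 476 of all 13930 genes. The part of dim signal and of dye in the ratios of these 35 genes was not tested.

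The 20 genes, picked out after their values were seen, held several with bright signals in both lines. DEF8 went from 3577 to 1123 in A498 and from 3190 to 1414 in 786-O, log2 ratios of -1.67 and -1.17. FGF2, a growth factor for many cell types, went from 1256 to 482 and from 460 to 216, log2 ratios of -1.38 and -1.09. KPNA3, an importin that carries proteins into the nucleus, went from 1717 to 697 and from 1686 to 787, log2 ratios of -1.30 and -1.10. MBNL1, a regulator of splicing, gave -1.22 and -1.17, and KIAA1191 gave -1.26 and -1.18. The translation factors EIF2S1 and EIF5A2 gave -1.18 and -1.20, and -1.13 and -1.16, and the importin IPO9 gave -1.21 and -1.04. TMEM154 gave -1.63 and -1.23, TBCEL -1.20 and -1.18, and PAGR1 -1.01 and -1.25. HBBP1 and MMP11 were the 2 of the 20 with a channel not well above background. Under 2 other background treatments, median centring, and subtraction of the 14 arrays or of the 6 on the slide, 11 of the 55 genes stayed past 1 in both lines in all 5 settings. Among these were CAV2, TMEM30A, SCARNA9, DESI1, PUDP, CLNS1A, DEF8, KIAA1191 and KPNA3, together with RC3H2. Taken singly, the background treatments kept 15 and 18 of the 55, and subtraction of the slide kept 23. Median centring kept all 55 and so told nothing apart. Subtraction of the 14 arrays kept 26, but the 20 genes had been split off by these same arrays. IPO9, PAGR1 and MMP11 stayed past 1 with median centring alone.

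The limma fit asked whether the mean of the 2 si-CAV2 arrays differed from 0, with the spread taken from the treatments run in 2 or 3 lines among the 16 arrays of the design. It called 31 of 25177 probes lower (0.123%) and 0 higher at a Benjamini-Hochberg adjusted p of 0.05, and 1178 probes had an unadjusted p under 0.05. CAV2 had a mean of -3.50 ± 0.18 (SE) and TMEM30A of -2.50 ± 0.13, both with an adjusted p of 0.000259 in limma. The list of called genes further held PUDP (limma adjusted p = 0.00925), CLNS1A (0.0136), RC3H2 (0.0275), DESI1 and KIAA1191 (0.0302 each), KPNA3 (0.0365), DEF8 (0.0464) and EIF2S1 (0.0491). It also held H6PD (0.0480), HSD17B3 (0.0365), HIPK1 and UBTD2 (0.0491 each), and MIP (0.00925) and TAT (0.00832), which were lower on every array. Of the 20 genes below all 14 other arrays, 9 were called. SCARNA9 and B4GALT1 did not pass, with a limma adjusted p of 0.214 and 0.559. Nor did MBNL1 (limma adjusted p = 0.0576), TBCEL (0.127), PAGR1 (0.176), FGF2 and EIF5A2 (0.223 each), TMEM154 (0.323) and IPO9 (0.884). Of the 31 probes, 20 named 17 genes and 11 had no matched gene, and all 11 of the latter averaged below -0.5 on the 14 other arrays, as did 3.53% of all tested probes. In the contrast of si-CAV2 with the mean of the other treatments, 5 probes were called, 2 of CAV2 and 1 each of TMEM30A, CLNS1A and PUDP. Without the A498 array, and likewise without the 786-O array, 2 probes were called, 1 each of CAV2 and TMEM30A.

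Genes higher in both lines were few, and none passed the limma test, in which TSPAN2 had an adjusted p of 0.363, NEURL1B of 0.675 and E2F2 of 0.154. The limma call of TSPAN2 depended on the processing, since its adjusted p was 0.0304 with normexp and 0.0205 with no background correction. TSPAN2, a tetraspanin, went from 27.0 to 83.1 in A498 and from 73.2 to 215 in 786-O, log2 ratios of 1.62 and 1.55. NEURL1B, a ubiquitin ligase of Notch ligand trafficking, went from 303 to 885 and from 116 to 274, log2 ratios of 1.55 and 1.24, whereas another NEURL1B probe gave -1.08 and 0.10. E2F2, a transcription factor of the cell cycle, went from 877 to 1792 and from 1091 to 2281, log2 ratios of 1.03 and 1.06. For each of the 3 genes both values were within the range of the 14 other arrays, which reached 2.37 for TSPAN2, 4.21 for NEURL1B and 2.67 for E2F2. E2F2 was also at 1.05 on the miR-27b array of 786-O. The remaining 7 of the 10 were dim. TIFA, an adaptor of NF-kB signalling, was not well above background with control siRNA in either line, and with si-CAV2 it was at least 2.50-fold higher in A498 and at least 3.04-fold higher in 786-O. LOC100130548 was at least 1.87-fold and at least 2.54-fold higher in the same way, and averaged 1.58 on the 14 other arrays. Of the 10 higher genes, 6 averaged above 0.5 on those arrays, as did 707 of all 13930 tested genes. Here a bound sets the bright channel against the lowest signal that counted as well above background in the dim channel. Where the dim signal itself was higher it was used, so that the bound is the measured ratio. The bounds are approximate, since some higher signals did not count as well above background, such as 13.7 for PTPRC in A498 with control siRNA. H6PD, an enzyme of the endoplasmic reticulum, fell by 1.85 on the log2 scale in A498. In 786-O, where its si-CAV2 channel was dim, the measured log2 ratio was -2.05 ± 0.54. Its range on the 14 arrays was from -2.11 to 1.42. LINC00165 was at least 3.83-fold and 3.19-fold lower, and averaged -1.72 on the 14 arrays.

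Genes past 1 in opposite directions were 2 of 13930 (0.0144%), and both had a dim channel. LINC01299 went from 77.6 to 11.9 in A498 (log2 ratio -2.71), and in 786-O it was at least 1.996-fold higher with si-CAV2, at a signal of 10.4. TEX101, a germ cell surface protein, was at least 2.71-fold higher in A498 and at least 3.25-fold lower in 786-O, at signals of 17.2 or less. They are named because no gene with 4 channels well above background was past 1 in opposite directions.

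Genes past 1 in 1 line and within 0.25 of 0 in the other were 14 lower (0.101%) and 23 higher (0.165%) in A498, and 11 lower (0.079%) and 33 higher (0.237%) in 786-O, and most had a channel that was not well above background. With all 4 channels well above background there were 2 lower and 3 higher in A498 alone, and 5 lower and 5 higher in 786-O alone. In A498, SGK1, a kinase of sodium transport, was the brightest: it went from 565 to 1163 there (log2 ratio 1.04) and from 1573 to 1788 in 786-O (0.18). CHN1, a Rac GTPase-activating protein, went from 311 to 125 in A498 (-1.31) and from 82.3 to 96.0 in 786-O (0.22). The smooth muscle actin ACTG2 gave -1.02 and 0.02, LY6G5C gave 1.30 and 0.09, and the argonaute AGO4 gave 1.004 and 0.09, all at signals of at most 90.1. AGO4 was also at 0.95 on the miR-27b array of A498.

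In 786-O alone, RASL10B and NRG4 were the lowest of the genes with 4 channels well above background. RASL10B, a small GTPase, went from 36.5 to 13.4 in 786-O (-1.45) and from 358 to 308 in A498 (-0.22). NRG4, a ligand of the ERBB4 receptor, went from 34.4 to 12.98 in 786-O (-1.41) and from 96.6 to 85.0 in A498 (-0.18). Both genes were brighter in A498 than in 786-O. On the 3 arrays of the other design in 786-O, RASL10B lay between -1.80 and -1.45 and NRG4 between -1.61 and -1.41, whereas miR-27b in A498 gave -0.19 and -0.53. On the 14 arrays in prostate and head and neck lines, RASL10B averaged -1.05 and NRG4 averaged -0.81, so that low values of both genes were not particular to si-CAV2 or to 786-O. LINC01310 gave 0.09 in A498 and -1.29 in 786-O, where another of its probes gave 0.18, and the lysosomal transporter SLC46A3 gave 0.07 and -1.05. The highest genes in 786-O alone were KIAA0087 (1.14), the interleukin-6 receptor IL6R (1.12), the aryl hydrocarbon receptor repressor AHRR (1.05) and the tubulin-binding TPPP (1.03), with control signals of at most 46.0 in 786-O. On the 3 other arrays in 786-O, the highest values were 1.38 for KIAA0087, 1.77 for IL6R, 1.52 for AHRR and 0.99 for TPPP. With 1 array a line, no difference between the lines was tested.

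Genes of the cell cycle lay slightly above 0 in both lines. Of 30 genes of G2 and mitosis, 30 were above 0 in both lines, with medians of 0.37 in A498 and 0.23 in 786-O, whereas 39.7% of all tested genes were above 0 in both. None was past 0.5 in both. KIF20A, a mitotic kinesin, gave 0.96 and 0.44, and TOP2A, the topoisomerase of dividing cells, gave 0.50 and 0.43. Of 30 genes of S phase, 29 were above 0 in both lines, with medians of 0.26 and 0.23, and 2 were above 0.5 in both, beside 1.06% of all tested genes. These were RRM2, a subunit of ribonucleotide reductase, at 0.77 and 0.82, and TYMS, the thymidylate synthase, at 0.61 and 0.63. A second RRM2 probe gave 0.47 and 0.27. RRM2 averaged 0.41 and TYMS averaged 0.74 on the 14 other arrays. The gene medians on the 14 other arrays were 0.27 for S phase and -0.08 for G2 and mitosis.

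Genes of NF-kB and inflammation lay on the other side. Of 24 tested members 22 were below 0 in both lines, where 32.8% of all tested genes were, and the medians were -0.34 in A498 and -0.12 in 786-O. In both lines 3 members were below -0.5 and 0 were above 0.5, beside 1.98% and 1.06% of all tested genes. BIRC3, an inhibitor of apoptosis, went from 2508 to 1343 in A498 and from 3621 to 1797 in 786-O, log2 ratios of -0.90 and -1.01. CXCL8, the neutrophil chemokine, gave -0.97 and -0.65, and interleukin-6 (IL6) gave -0.70 and -0.62. A second CXCL8 probe gave -0.73 and -0.37. On the 14 other arrays the genes of the list had a median average of 0.55. BIRC3 ran there from -1.92 to 5.90 and CXCL8 from -2.30 to 6.43, so that both genes were within the range of other treatments.

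Among targets of p53, TP53INP1 and CDKN1A were lower while the list as a whole was not. TP53INP1, a cofactor of the stress response, went from 189 to 93.2 in A498 and from 102 to 37.6 in 786-O, log2 ratios of -1.02 and -1.43, and a second probe gave -0.55 and -0.99. CDKN1A, the p21 inhibitor of cyclin-dependent kinases, gave -0.71 and -0.75, and the nuclease AEN gave -0.66 and -0.67. These were the 3 of 26 members below -0.5 in both lines, beside 1.98% of all tested genes, and the list medians were 0.08 and 0.09. For TP53INP1 the lowest of the 14 other arrays was -3.08 and for CDKN1A -1.10, whereas AEN lay below all 14, of which the lowest was -0.62.

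In lipid synthesis 3 of 33 tested genes were below -0.5 in both lines, where 1.98% of all tested genes were. MSMO1 and SQLE, enzymes that act on methyl sterols and on squalene on the way to cholesterol, gave -1.23 and -0.95, and -1.07 and -0.88. SC5D, a later enzyme of the same route, gave -0.76 and -0.50. The list medians were -0.15 and -0.08, and the gene median on the 14 other arrays was lower, at -0.34. MSMO1 and SQLE lay within the range of those arrays, where their lowest values were -1.54 and -1.35. Of 29 hypoxia-inducible genes 2 were below -0.5 in both, again beside 1.98% of all: the mitophagy receptor BNIP3L at -0.87 and -0.60, and the collagen hydroxylase P4HA2 at -0.87 and -0.57. BNIP3L averaged -1.19 on the 14 arrays, and P4HA2 averaged -0.15.

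The remaining lists held 0 members past 1 in both lines and at most 1 past 0.5. The lists were integrins and focal adhesion (28 tested), extracellular matrix (25), flotillins and clathrin endocytosis (21), YAP-TEAD targets (25), TGF-beta pathway (27), ERK feedback (18), endoplasmic reticulum chaperones (20), ATF4 amino acid stress (25), interferon stimulated genes (30) and the RNA interference machinery (14). The 1 such gene was TGFBR2, a TGF-beta receptor, at -0.57 and -0.50, of which another probe reached 0.33 in 786-O. The inhibitory SMAD6 gave 0.48 and 0.41. The integrin subunit ITGA5 gave -0.37 and -0.31, the adhesion adaptor PXN -0.30 and -0.28, and the laminin chain LAMB3 -0.22 and -0.37. DNM3 and EEA1, of endocytosis, gave -0.70 and -0.24, and -0.56 and -0.21. NT5E and WWTR1 gave -0.41 and -0.65, and -0.65 and -0.30. EGR1 gave -0.84 and -0.43, and ETV4 gave 0.17 and 0.52. HSP90B1 and DNAJB11, chaperones, gave -0.42 and -0.30, and -0.37 and -0.24, and the stress regulators ATF5 and CEBPB gave -0.61 and -0.44, and -0.55 and -0.43. CMPK2 and ISG20, induced by interferon, gave 0.31 and 0.58, and -0.27 and -0.49. The interferon list had medians of 0.12 and -0.14, against an average of 1.18 for its median gene on the 14 other arrays. TNRC6B, a partner of argonaute, gave -0.58 and -0.45.

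**Figure D5:**
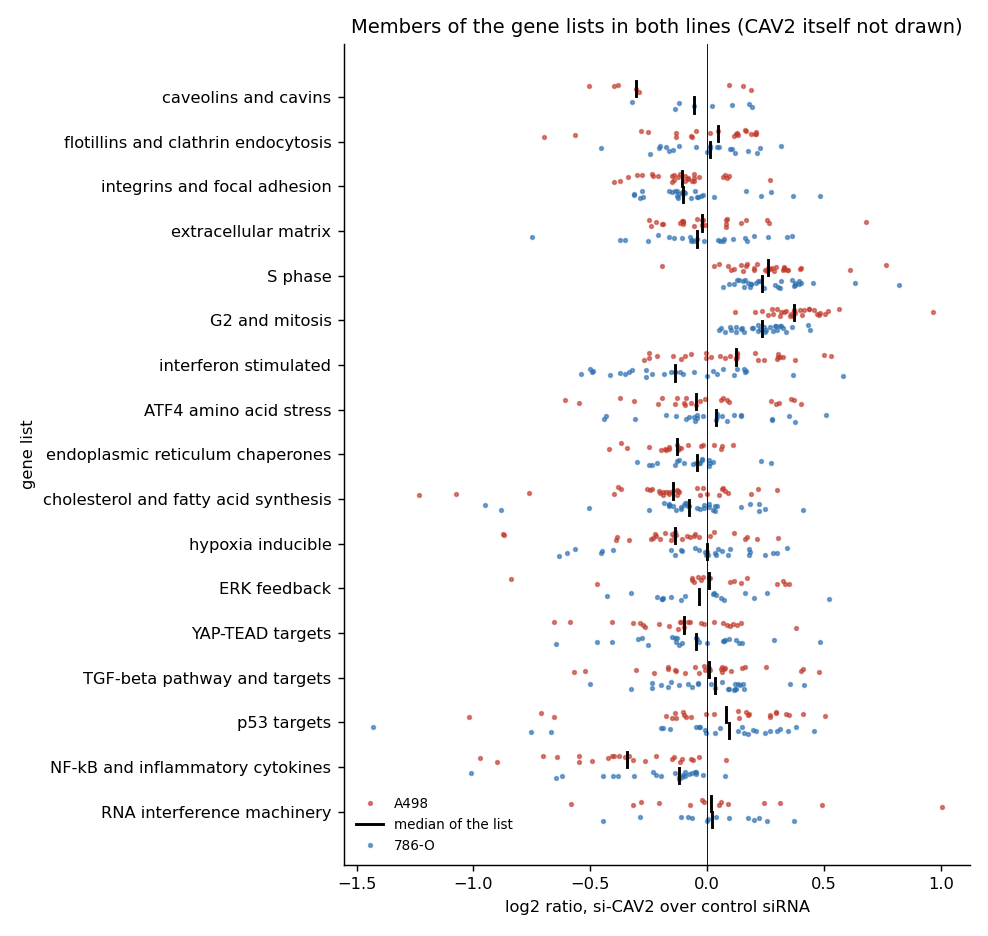
Log2 ratio of each tested member of 17 gene lists in A498 (red) and 786-O (blue), with a black bar for the list median in each line; CAV2 is left out of the points. The points of G2 and mitosis all lie right of 0 and those of NF-kB and inflammatory cytokines nearly all left of 0, mostly within 1.

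The lines were checked against markers of kidney and of other tissues. PAX8 and PAX2, transcription factors of the renal lineage, had control signals of 1459 and 1097 in A498 and of 2472 and 1116 in 786-O, and of 15 kidney markers 12 were tested. CA9, NDUFA4L2 and CUBN were the 3 that were not. Under si-CAV2, PAX8 gave -0.45 and -0.42 and the other tested kidney marker with the largest mean change, SLC17A3, gave -0.32 and -0.09. Of 10 prostate markers 6 were tested, of 10 squamous markers 2, and of 14 endothelial, leukocyte and fibroblast markers 4. The prostate marker KLK3 was at signals of at most 17.9 and not well above background with control siRNA in either line. Its measured log2 ratios were 1.35 ± 0.59 in A498 and 0.53 ± 0.49 in 786-O, with an average of 0.95 on the 14 other arrays. The squamous marker SFN, also a stress-response gene, was at 21057 in A498 and at 244 in 786-O with control siRNA, and gave 0.35 and 1.604, while KRT13 gave -0.09 and -0.38. Of the last group CDH5 gave -0.24 and -0.16, and PTPRC was at signals of at most 23.5. Control levels of A498 had a rank correlation of 0.97 with those of A498 on the other design and of at most 0.91 with 786-O there. Those of 786-O had 0.94 to 0.97 with 786-O and 0.90 with A498 on the other design. Between the 2 si-CAV2 arrays the value was 0.93. The 786-O control levels had 0.91 with those of DU145 and of PC3 on the miR-145 arrays.

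Probes for long intergenic RNAs without a matched gene were more often lower than higher, as were the tested genes. Of 4280 tested probes 51 were lower (1.19%) and 10 higher (0.234%) past 1 in both lines, beside 0.395% and 0.0718% of all tested genes. The part of dye in these counts was not tested. A_19_P00809313, at chr11:65212941-65213000 on the forward strand of hg19, went from 86.4 to 20.3 in A498 and from 46.1 to 9.52 in 786-O, log2 ratios of -2.09 and -2.28. On the 14 other arrays it lay between -3.31 and 1.85. A_19_P00802839, at chr1:224708803-224708862 on the reverse strand, gave -1.49 and -1.59, but averaged -1.68 on the 14 arrays. A_19_P00806684, at chr7:30427286-30427345 on the reverse strand, was the 1 higher probe with all 4 channels well above background, at 1.18 and 1.19, and averaged 1.18 on the 14 arrays.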

How the data were processed

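RNA of si-CAV2 and control siRNA cells was hybridised to 1 Agilent SurePrint G3 two-colour array a line. The authors deposited the output of Agilent Feature Extraction 10.7.3.1: per the file headers, intensity values per spot, corrected for background and dye, and a log ratio of Cy5 over Cy3 on the log10 scale with its error. The authors' series matrix holds the same log10 values (largest difference 0) and was an alternative.

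Control and outlier spots (571 and 530 of 58717) were left out, spots averaged per probe and ratios turned to log2. A probe was tested when at least 0.5 of its spots were well above background in 1 channel of each array (25177 of 42405 probes, 59.4%). Of the probes, 28427 (67.0%) matched 20509 genes of RefSeq GRCh38.p14, used for names only, and a gene is its brightest tested probe. Coordinates are those of the array annotation on hg19. Genes were called by size, a log2 ratio past 1 in both lines. Limma 3.58.1 (R 4.3.3) fitted 1 coefficient for each of 10 treatments over 16 arrays. The spread came from treatments run in 2 or 3 lines, with Benjamini-Hochberg adjustment. In simulated data 200 of 25177 probes were changed. At a log2 change of -1 limma found 15 of them and the size rule 58, and they called 0 and 40 unchanged probes. At a change of -2 they found 168 and 189, and called 11 and 29 unchanged probes. Unchanged probes were simulated around 0, with no shift shared by arrays. In the data 3.53% of tested probes averaged below -0.5 on the 14 other arrays. The simulated counts of unchanged probes called therefore do not carry over to the data. Precision is limited by 1 array a line, and p-values measure the spread between arrays and lines.

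Named genes are CAV2, the caveola list, the 12 largest changes each way in both lines (by the smaller value, all 4 channels well above background), up to 6 in each opposite direction, up to 4 of each class past 1 in 1 line, the 2 largest dim ones each way, members of each list past 1 or else its 2 largest, and lincRNA probes by a like rule. Others were named after their values were seen. Some genes that the rule picks are not reported here. Genes with near-identical copies (SCARNA9, HBBP1) may share signal. Members and lists were chosen with earlier results of these data known. Alternatives changed how background was handled (limma's normexp, offset 50, and no correction, both followed by loess), centring, subtraction of other arrays, the filter, the probe of a gene, the limit and the arrays in the fit. Python 3.11.15 was used for the rest.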

Additional observations from a re-analysis of the deposited data

Results flagged for a closer look

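The 2 genes with measured log2 ratios past 1 in opposite directions stood out, and the difference between the lines was not tested. LINC01299 had measured log2 ratios of -2.71 in A498 and 1.28 in 786-O, and TEX101 of 1.498 in A498 and -2.38 in 786-O. All of these but the first rest on a channel that was not well above background, so that only approximate bounds are given there. The bound was at least 1.996-fold higher for LINC01299 in 786-O, which is not past 1 on the log2 scale. For TEX101 the bounds were at least 2.71-fold higher in A498 and at least 3.25-fold lower in 786-O. On the 14 other arrays the genes averaged 0.37 and 0.93.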

How the results depend on the processing

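The CAV2 knock-down had means from -3.81 to -3.28 in 7 alternatives, of which the series matrix holds identical values. Its p of 0.00833 is the smallest the exact permutation test can give and says nothing of stability. Counts by size depended on the processing. Main counts were 55 lower, 10 higher and 2 opposite. With normexp they were 15, 1 and 0, with no background correction 18, 1 and 0, with all 4 channels well above background 35, 3 and 0, and at a limit of 1.5 they were 13, 3 and 0. With no filter they were 113, 47 and 41, and at a limit of 0.5 they were 276, 148 and 38. Subtracting the 14 other arrays gave 115 lower and 23 higher genes, of which 26 and 3 were among the main ones. Subtracting the 6 other arrays of the slide gave 285 and 76, of which 23 and 4 were. Opposite genes were 2 and 3 there. Limma called 0 probes lower with the 2 si-CAV2 arrays alone (4641 at an unadjusted p under 0.05), 5 in the contrast with other treatments, and 2 to 2 without either si-CAV2 array, where the lone array was taken to vary like the other treatments. It called 26 lower and 2 higher with normexp, 31 and 2 with no background correction, and 27 and 8 with no filter, of which 16, 21 and 17 lower ones were among the main 31. H6PD and HSD17B3 were lost in all 3, MIP and TAT with normexp, DESI1, DEF8, EIF2S1, HIPK1 and UBTD2 with no filter, and the last 3 also with median centring. The mean of both lines turned sign with the 14 arrays subtracted for MIP (0.19), TAT (0.085) and A_19_P00802839 (0.14), and with the slide subtracted for LOC100130548 (-0.28); the subtraction itself shows these shifts to be shared with other arrays. Other causes were not tested. Slide as a block could not be fitted, since each treatment lies on 1 slide, so slide and treatment cannot be told apart. No paired analysis was possible because each group has 1 array. Signals near background limit the ratios of dim genes.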
